A study of Homo sapiens with 6 samples.

Results

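Strong H3K27ac peaks found only in H69M comprised 882 regions of the genome, each with a peak in a derived small cell lung cancer (SCLC) line and none in the line it came from. They are the peaks of the H69M H3K27ac list on chromosomes 1 to 22 and X whose authors' score is 1000 or more and which no peak of the H69 H3K27ac list overlaps by 1 bp or more. The score is a number per peak that starts near 50, its definition is not given, and peaks at 1000 or more are called strong here. The strong H69M-only peaks made up 882 of the 13482 H69M peaks at that score (6.54%, exact 95% interval 6.13 to 6.97) and 882 of all 51091 H69M peaks. Without a score limit, 24739 of the 51091 H69M peaks (48.4%) had no H69 counterpart. A missing H69 peak says only that none was called. In the other direction 58 of the 9451 H69 peaks with a score of 1000 or more had no H69M peak (0.614%). The regions were thus chosen by the scores and overlaps of these 2 lists, and the gain of H3K27ac itself is a description that carries no test. The H69M list was also the longer one, with 51091 peaks against 38255 in H69, and the part of read depth, which is unknown, was not tested. When as many H69M peaks were taken, by score, as H69 has at 1000 or more, 307 had no H69 counterpart (3.25%).

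H69M, a line derived from H69 by an earlier published procedure per the labels' protocols, was set against its parent NCI-H69 (H69), an established SCLC line. No agent, dose or time is given for either line, and each line gave 1 H3K27ac library and 1 H3K27me3 library, so every value below rests on 1 sample per group. The study concerned SCLC cells with high or low MHC class I. H69M stands for 1 derived line only, and both lists come from pools of cells, in which a mark on few cells and a weak mark on all cells cannot be told apart.

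H3K27ac is an acetyl group on lysine 27 of histone H3, placed by the acetyltransferases CBP and p300 at active promoters and enhancers. H3K27me3 is placed on the same lysine by the Polycomb complex PRC2 at silenced genes, and one histone tail cannot carry both. Most SCLC cells are neuroendocrine and express neuronal transcription factors, while some take on a non-neuroendocrine state with mesenchymal genes, adhesion to the culture dish and activity of the coactivators YAP and TAZ.

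The promoters of 5 genes whose neighbourhoods held such peaks are shown because the results below turn on them. For TGFBI, CAV1 and PDGFRB, and for LIF and CCL2, which are named only, the neighbourhood held most strong H69M-only peaks among those with no H69 H3K27ac peak. YAP1 and AXL were chosen after their values were seen, since strong H69M-only peaks there lay over H3K27me3 in both lines. Each sequence is 300 bases from RefSeq on GRCh38.p14, from 250 bases before to 50 after the gene's start, written 5′ to 3′ on the gene's strand. They lie at chr5:136028738-136029037 on the plus strand (TGFBI), chr7:116524759-116525058 on the plus strand (CAV1), chr5:150155796-150156095 on the minus strand (PDGFRB), chr11:102110197-102110496 on the plus strand (YAP1) and chr19:41218973-41219272 on the plus strand (AXL). The peaks are on hg19, so the sequences were not placed against them. Capitals mark matches, on either strand, to the letters of 4 binding motifs, AP-1 (TGANTCA), TEAD (ACATTCC, read GGAATGT on the other strand), RUNX (TGTGGTT) and the GC box (GGGCGG, read CCGCCC on the other strand).
TGFBI: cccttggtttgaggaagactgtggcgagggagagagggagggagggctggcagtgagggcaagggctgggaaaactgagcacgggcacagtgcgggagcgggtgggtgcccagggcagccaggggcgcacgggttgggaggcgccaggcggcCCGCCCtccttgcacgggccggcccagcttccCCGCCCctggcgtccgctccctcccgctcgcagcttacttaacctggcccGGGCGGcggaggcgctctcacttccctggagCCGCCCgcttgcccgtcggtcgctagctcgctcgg
CAV1: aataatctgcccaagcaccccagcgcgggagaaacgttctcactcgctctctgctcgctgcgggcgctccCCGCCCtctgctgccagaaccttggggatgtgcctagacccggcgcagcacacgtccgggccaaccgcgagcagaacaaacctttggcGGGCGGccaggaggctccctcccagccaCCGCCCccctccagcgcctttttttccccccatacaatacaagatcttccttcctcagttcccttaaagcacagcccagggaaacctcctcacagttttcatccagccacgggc
PDGFRB: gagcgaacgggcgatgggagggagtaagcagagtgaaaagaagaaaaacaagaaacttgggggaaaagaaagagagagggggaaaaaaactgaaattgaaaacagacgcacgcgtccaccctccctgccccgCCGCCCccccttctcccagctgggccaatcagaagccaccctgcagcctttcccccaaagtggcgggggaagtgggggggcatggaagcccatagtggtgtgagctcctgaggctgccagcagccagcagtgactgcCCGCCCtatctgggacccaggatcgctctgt
YAP1: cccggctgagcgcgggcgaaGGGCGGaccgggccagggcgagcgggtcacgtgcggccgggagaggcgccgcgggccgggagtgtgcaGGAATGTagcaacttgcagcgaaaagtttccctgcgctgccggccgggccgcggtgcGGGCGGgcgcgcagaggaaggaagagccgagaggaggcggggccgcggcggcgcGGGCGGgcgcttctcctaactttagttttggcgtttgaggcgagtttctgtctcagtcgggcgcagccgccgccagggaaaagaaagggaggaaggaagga
AXL: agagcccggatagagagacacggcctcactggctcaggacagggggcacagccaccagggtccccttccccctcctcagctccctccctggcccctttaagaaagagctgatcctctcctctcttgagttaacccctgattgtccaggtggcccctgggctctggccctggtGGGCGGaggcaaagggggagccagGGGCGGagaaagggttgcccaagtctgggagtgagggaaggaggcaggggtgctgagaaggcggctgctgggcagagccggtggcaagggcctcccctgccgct
The matches in the 5 sequences do not overlap one another. All 5 hold GC boxes, 4 of them in TGFBI, 3 in CAV1, 2 in PDGFRB, 3 in YAP1 and 2 in AXL. The YAP1 promoter also holds the TEAD letters, which begin 162 bases before the start. Promoters were found for 34 of the 48 genes whose neighbourhood held a strong H69M-only peak and for 121 of the 167 others on the gene lists. The TEAD letters stood in 3 of the 34 (8.82%), in 6 of the 121 (4.96%) and in 3.49% of all 27195 promoters of this length. The RUNX letters stood in 4 of the 34 (11.8%), in 3 of the 121 (2.48%) and in 4.29% of all promoters, and the AP-1 letters in 3 (8.82%), 15 (12.4%) and 7.73%. The GC box stood in 26 of the 34 (76.5%), in 69 of the 121 (57.02%) and in 44.7% of all promoters. The G+C content moved with this share, with medians of 67.5, 62.0 and 58.3% in the 3 sets, and its part was not tested. The exact 95% intervals of these counts are wide, 3.30 to 27.5% for the RUNX letters in the 34 promoters and 0.514 to 7.07% in the 121. A further 10 motifs were searched, the interferon regulatory factor (IRF) motif by name and the letters of the C/EBP (TTGCNNAA), ETS (CCGGAAGT), POU (ATGCAAAT) and FOX (TGTTTAC) families, of an E-box (CAGCTG) and of another such box (CAGATG), and of the GATA family (AGATAA), the SOX family (ACAAAGG) and the SMAD proteins (CAGACA). Of these the IRF motif stood in 1 of the 34 (2.94%), in 16 of the 121 (13.2%) and in 3.65% of all promoters. The SMAD letters stood in 7 (20.6%), 17 (14.05%) and 16.8%.

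Strong H69M-only peaks lay in 10 of 20 neighbourhoods of YAP and TAZ pathway genes, in 11 of 25 of mesenchymal genes and in 1 of 22 of neuroendocrine genes. These neighbourhoods differ in size, with medians of 200, 100 and 100 kb, and the difference between the lists was not tested. A gene's neighbourhood is a window here, the gene's body on hg19 widened to whole steps of 100 kb, which gave 215 windows of 100 to 800 kb (median 100). The windows were placed from general knowledge, since no hg19 annotation was used, and each also holds other genes, so a peak in a window is a neighbour of the gene and not assigned to it. Of the 215 windows 48 (22.3%) held a strong H69M-only peak. As a background, 703 of the 9931 tiles of 200 kb with any H69M H3K27ac peak held one (7.08%), as did 11.6% of the 6064 tiles with a strong H69M peak. The share grows with size, from 4.82% of 100 kb tiles to 12.9% of 500 kb tiles. Summed over the windows 19.1% of the 445 strong H69M peaks had no H69 counterpart, against 6.54% genome-wide. Peaks in overlapping windows count once per window in this sum, so its 85 peaks without a counterpart are 83 different peaks. The lists were written for genes of interest, with earlier results of these data known, and the windows were not drawn at random. The shares by list are thus a description and not independent support, and no test was made.

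**Figure D1:**
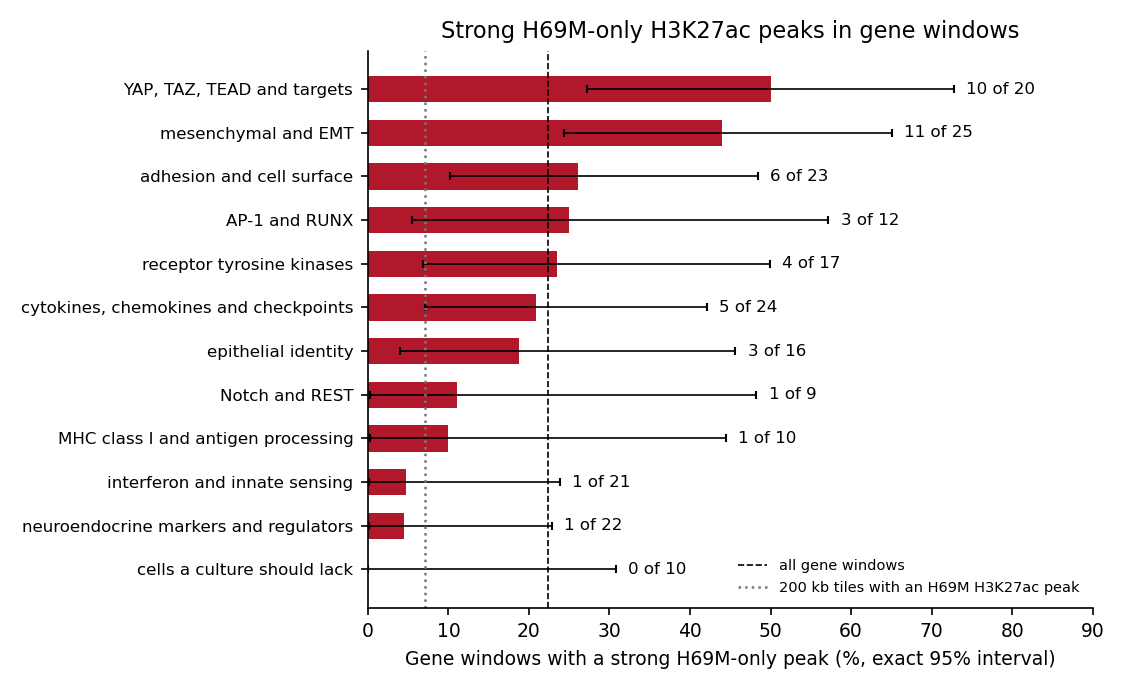
Percentage of gene windows in each list that held at least 1 strong H69M-only H3K27ac peak, with exact 95% intervals (whiskers), for the 12 lists of 9 or more windows. The YAP and mesenchymal lists stand at 50.0 and 44.0%, above all 215 windows (dashed line, 22.3%) and 200 kb tiles (dotted line, 7.08%), and the list of cells a culture should lack stands at 0. The lists were chosen with earlier results of these data known.

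YAP1 and WWTR1 encode YAP and TAZ, which bind TEAD factors when the Hippo kinases LATS1 and LATS2 are inactive. Of the 20 windows on the list of YAP, TAZ, TEAD and their targets 10 held a strong H69M-only peak (50.0%, 27.2 to 72.8), and 4 of these 10 had no H69 H3K27ac peak at all. In this list 12 of the 40 strong H69M peaks had no H69 counterpart. The YAP1 window held 8 H3K27ac peaks in H69M and 0 in H69. Its strong H69M-only peak, chr11:101980236-101982965, stood at the score ceiling of 3100, and the nearest H69 peak lay 234 kb away. The WWTR1 window held 13 peaks in H69M and 1 in H69, whose score was 123, while its strong H69M-only peak scored 2968. Near both coactivator genes a strong peak was thus listed in H69M and none of that score in H69.

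The known targets of YAP and TAZ followed the same layout in part. The window of CCN1, a secreted matrix protein and classical target, held 8 peaks in H69M and 0 in H69, with 1 strong H69M-only peak of score 2722. AMOTL2, a junction protein that restrains YAP, had 10 peaks in H69M and 0 in H69 in its window, and 2 strong H69M-only peaks with scores of 3100 and 1314. The window of LATS2, the Hippo kinase, held 3 peaks in H69M and 0 in H69, and that of PTPN14, a phosphatase that binds YAP, 13 and 3. The windows of NT5E, the surface enzyme CD73, and of AXL, a receptor tyrosine kinase, held 1 and 2 strong H69M-only peaks, and those of AJUBA and NUAK2 1 each. H69 peaks reached scores of 3100 in the AXL window, 2928 in that of AJUBA, 2059 in that of NUAK2 and 70.5 in that of NT5E. The other 10 windows held none. Among them TEAD1 had 30 peaks in H69M and 37 in H69, and CCN2, F3, CRIM1 and RBMS3 had 4, 3, 15 and 5 peaks in H69M, none with a score of 1000 or more, and 0 in H69.

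Of the 25 windows on the mesenchymal and EMT (epithelial to mesenchymal transition) list 11 held a strong H69M-only peak (44.0%, 24.4 to 65.07), and 21 of the 53 strong H69M peaks there (39.6%) had no H69 counterpart. TGFBI, a secreted matrix protein that binds integrins and collagen, had the most. Its window held 16 H3K27ac peaks in H69M and 0 in H69, and 6 of the 16 were strong, with scores from 1165 to 2699 and 19.2 kb in all. The nearest H69 peak lay 62.3 kb from the closest of the 6. COL1A1, a chain of collagen I, had 3 strong H69M-only peaks over 9.05 kb, among 11 H69M and 6 H69 peaks. COL6A1 and COL6A2, neighbouring chains of collagen VI, had 2 and 1, in windows with 7 and 3 peaks in H69M and 0 in H69. COL6A3, another chain of collagen VI, had none, with 11 peaks in H69M and 6 in H69, 1 of them a strong H69-only peak. THBS1 and S100A6 had none either, with 1 and 10 peaks in H69M and 3 and 15 in H69.

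ITGA5, a subunit of the fibronectin receptor, had a pair of very wide strong H69M-only peaks of 7.11 and 8.03 kb, both at the ceiling of 3100. Its window held 14 H3K27ac peaks in H69M and 16 in H69, and the highest H69 peak also scored 3100. SPARC, a matrix glycoprotein, had 1 with a score of 2377 in a window with 7 peaks in H69M and 0 in H69. PRRX1, a homeobox factor of mesenchyme, VIM, the intermediate filament vimentin, CDH2, the neural and mesenchymal cadherin, and COL5A1 had 1 each, with scores from 1029 to 1222. The highest H69 peaks scored 3100 in the COL5A1 window, 2334 in that of CDH2 and 69.8 in that of VIM, and the PRRX1 window held 0. The regulators ZEB1, ZEB2, SNAI1, SNAI2 and TWIST1 had none. The SNAI2 and TWIST1 windows held H69 peaks at the ceiling of 3100, and the highest H69 peak near SNAI1 scored 2933.

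**Figure D2:**
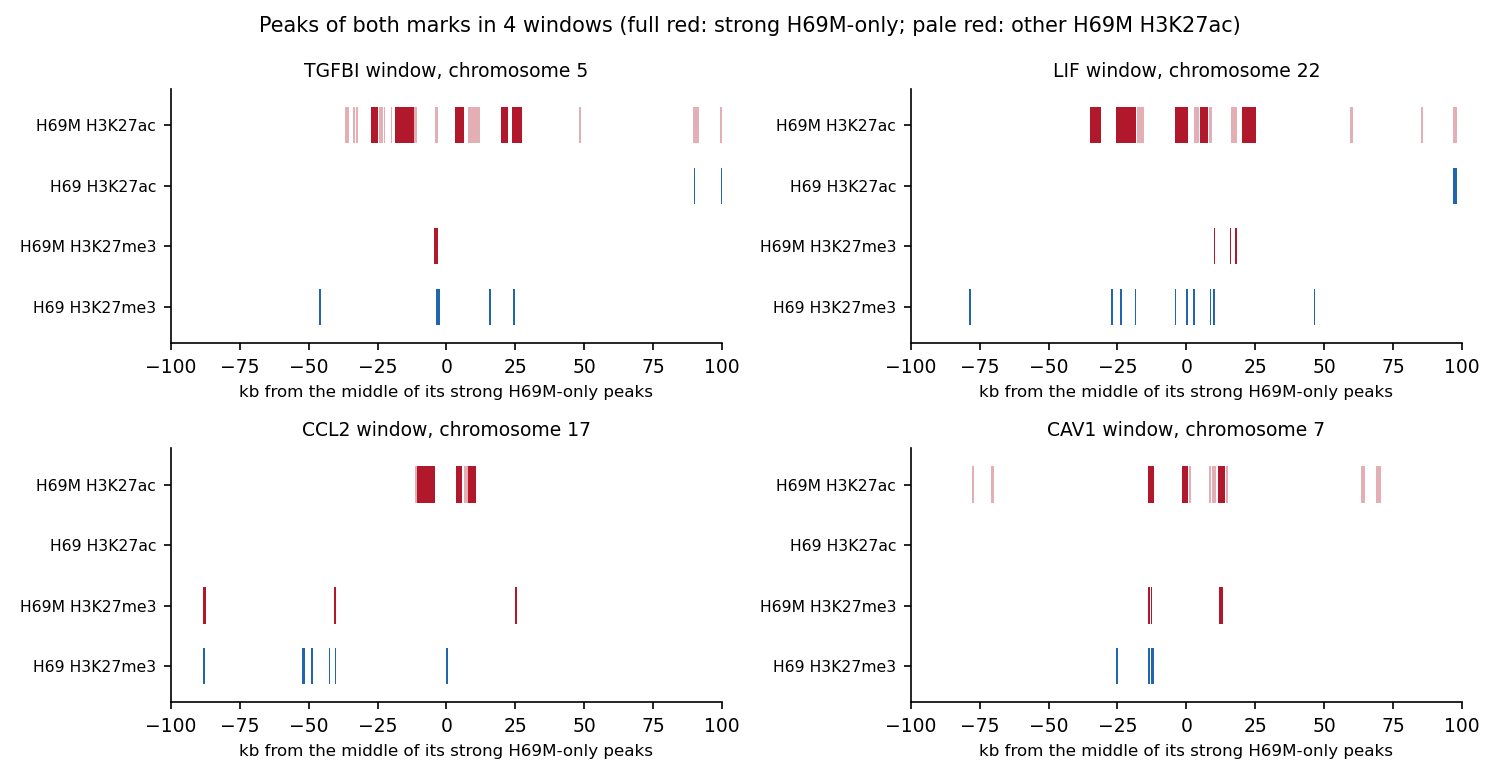
Peaks of H3K27ac and H3K27me3 in H69M and H69 over 200 kb around the strong H69M-only peaks of 4 windows, with the distance in kb from their middle on the horizontal axis, boxes drawn at least 0.6 kb wide and 1 row per list. Full red boxes in the top row are strong H69M-only peaks and pale red ones other H69M H3K27ac peaks. In each map H69M has more H3K27ac peaks (20, 13, 6 and 11 for TGFBI, LIF, CCL2 and CAV1) than H69 (2, 1, 0 and 0). The windows shown were picked among those with strong H69M-only peaks and no H69 H3K27ac peak. The excess in H69M thus follows from the choice and is a description.

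Cytokine and receptor windows held some of the densest groups. LIF, a cytokine of the interleukin 6 family, had 5 strong H69M-only peaks over 20.3 kb in a window with 10 H3K27ac peaks in H69M and 0 in H69. Their scores ran from 1229 to 3100, and 2 of the 5 stood at the ceiling. LIFR, the receptor chain that binds LIF, had 3, with scores of 1901, 1378 and 1246, among 16 H69M peaks and 1 H69 peak of score 75.3. The window of OSMR, a related receptor chain, held 2 weaker peaks in H69M and 0 in H69. A ligand and its receptor, on chromosomes 22 and 5, thus both had strong H69M-only peaks in their windows.

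CCL2, a chemokine that attracts monocytes, had 4 strong H69M-only peaks with scores of 1008, 1358, 1002 and 1805, in a window with 6 peaks in H69M and 0 in H69. IL6, another cytokine of the LIF family, and PDCD1LG2, the checkpoint ligand PD-L2, had 1 each in windows with 0 H69 peaks, with scores of 1098 and 1929. CD47, a surface signal against phagocytosis, had 1 among 17 peaks in H69M and 6 in H69. The other 19 of the 24 windows on the list of cytokines, chemokines and checkpoints held none. The share of the list with such a peak, 20.8%, is near the 22.3% of all 215 windows. Among these CD274, the ligand PD-L1 and the neighbour of PDCD1LG2, had 3 peaks in H69M and 1 in H69.

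Of 17 windows on the list of receptor tyrosine kinases and other growth factor receptors 4 held a strong H69M-only peak (23.5%, 6.81 to 49.9). This share is near the 22.3% of all 215 windows. PDGFRB, the receptor of platelet-derived growth factor on fibroblasts and pericytes, had 3 with scores of 1510, 1764 and 1198 and 13 peaks in H69M against 0 in H69. EGFR, the receptor of epidermal growth factor, had 1 of score 2281 among 13 peaks in H69M and 0 in H69. EPHA2, an ephrin receptor, had 1 of score 1394, and LIFR had the 3 given above. MET, FGFR1, IGF1R and KIT had none, and the highest H69 peaks in their windows scored 1697 for MET and 3100 for the other 3.

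Among 23 windows on the adhesion and cell surface list 6 held a strong H69M-only peak (26.1%, 10.2 to 48.4). This share is near the 22.3% of all 215 windows. CAV1, the scaffold of caveolae, had 3 with scores of 1383, 1255 and 3100, in a window with 9 peaks in H69M and 0 in H69. CAVIN1, which coats caveolae, and PLAU, the urokinase that activates plasminogen, had 2 each. ITGA3, a laminin-binding integrin, and LGALS3, a galectin, had 1 each. The H69 peaks in the PLAU window did not exceed a score of 84.6, whereas those in the windows of CAVIN1, ITGA3 and LGALS3 reached 3100.

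SMAD3, which carries the signal of TGF-beta receptors to the nucleus, had 5 strong H69M-only peaks over 20.6 kb. The window held 27 peaks in H69M and 8 in H69, and the highest H69 score there was 836. TGFBR1, TGFBR2 and SMAD7 had none, with 10, 4 and 17 peaks in H69M and 10, 1 and 16 in H69. In the AP-1 and RUNX list 3 of 12 windows held one. FOSL1, a Fos-family subunit of AP-1, had 2 with scores of 3100 and 2203, and RUNX1 and RUNX2 had 1 each with scores of 1655 and 1808. Within their 400 kb the RUNX1 and RUNX2 windows held 11 and 9 peaks in H69M and 2 and 1 in H69.

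Windows of genes tied to the purpose of the study held such peaks at about the share of tiles, which was 4.82% at 100 kb and 7.08% at 200 kb. Of the 10 windows for MHC class I and antigen processing 1 held a strong H69M-only peak (10.0%, 0.253 to 44.5), that of NLRC5, the transactivator of MHC class I genes. This peak, chr16:57032870-57035527, scored 1691, and the window held 8 peaks in H69M and 3 in H69. HLA-B, B2M and TAP1 had none, with 2, 4 and 4 H3K27ac peaks in H69M and 2, 4 and 2 in H69. The window of HLA-E held 4 weaker peaks in H69M and 0 in H69. Of the 21 windows for interferon and innate sensing 1 (4.76%) held strong H69M-only peaks, STAT3 with 3, of which 2 also lie in the CAVIN1 window.

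Near neuroendocrine genes the share of strong H69M peaks without an H69 counterpart was not above that genome-wide. All of its 22 windows held H3K27ac peaks in both lines, and 20 of the 22 held strong H69M peaks. Of the 73 strong H69M peaks there 2 (2.74%) had no H69 counterpart, against 6.54% genome-wide, both in the window of POU3F2, a neural transcription factor. The windows of INSM1 and DLL3, defining neuroendocrine genes, held 10 and 7 peaks in H69M and 16 and 7 in H69. The windows of defining neuroendocrine genes thus carried H3K27ac in both lines. In the epithelial list 3 of 16 windows (18.8%) held a strong H69M-only peak, near the 22.3% of all 215 windows. KRT7 had 2 and GRHL2 and CLDN4 had 1 each, and 3 of these 4 lay under 5 kb from an H69 peak. None of the 10 windows for lymphoid, myeloid and endothelial genes held one. Among them PTPRC and KDR had 1 weaker peak each in H69M and 0 in H69.

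In each line a minority of strong H69M-only peaks lay over H3K27me3, a far larger share than of strong peaks shared by the lines. H3K27me3 itself was not used to choose the strong H69M-only peaks. The rule did sort peaks by H69 H3K27ac, and the 2 marks exclude each other on the same histone tail. The H69 shares below are thus not independent of the rule. Of the 882 peaks 77 overlapped an H3K27me3 peak of H69M (8.73%, 6.95 to 10.8) and 96 one of H69 (10.9%, 8.91 to 13.1), against a background of 1.56 and 1.32% of all 51091 H69M H3K27ac peaks. The 12600 strong H69M peaks that overlap an H69 peak, called strong shared peaks, gave 0.929% in H69M (117 peaks) and 0.897% in H69 (113 peaks). The 23857 H69M-only peaks with scores under 1000 gave 1.48% in H69M and 1.35% in H69. The exact 95% intervals of the strong H69M-only peaks did not overlap those of either class in either line, which is a description and not a test. With H3K27me3 peaks of score 100 or more alone the shares were 3.17% in H69M and 3.74% in H69, against 0.294 and 0.238% of strong shared peaks.

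The H3K27me3 peaks of the 2 lines fell partly on the same strong H69M-only peaks. Both lines had H3K27me3 at 57 of the 882 peaks, H69M alone at 20 and H69 alone at 39, so 116 in all (13.2%) carried it in at least 1 line. The 77 had both marks in H69M, and in pooled cells acetyl and methyl marks on different cells or alleles cannot be told apart. The H3K27me3 peaks under them were small and low. Their median score was 71.8 in H69M and 73.1 in H69, and 28.8% of 153 and 23.2% of 181 reached a score of 100. The H3K27me3 peaks under strong shared peaks had like scores, with medians of 72.8 in H69M and 71.5 in H69.

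**Figure D3:**
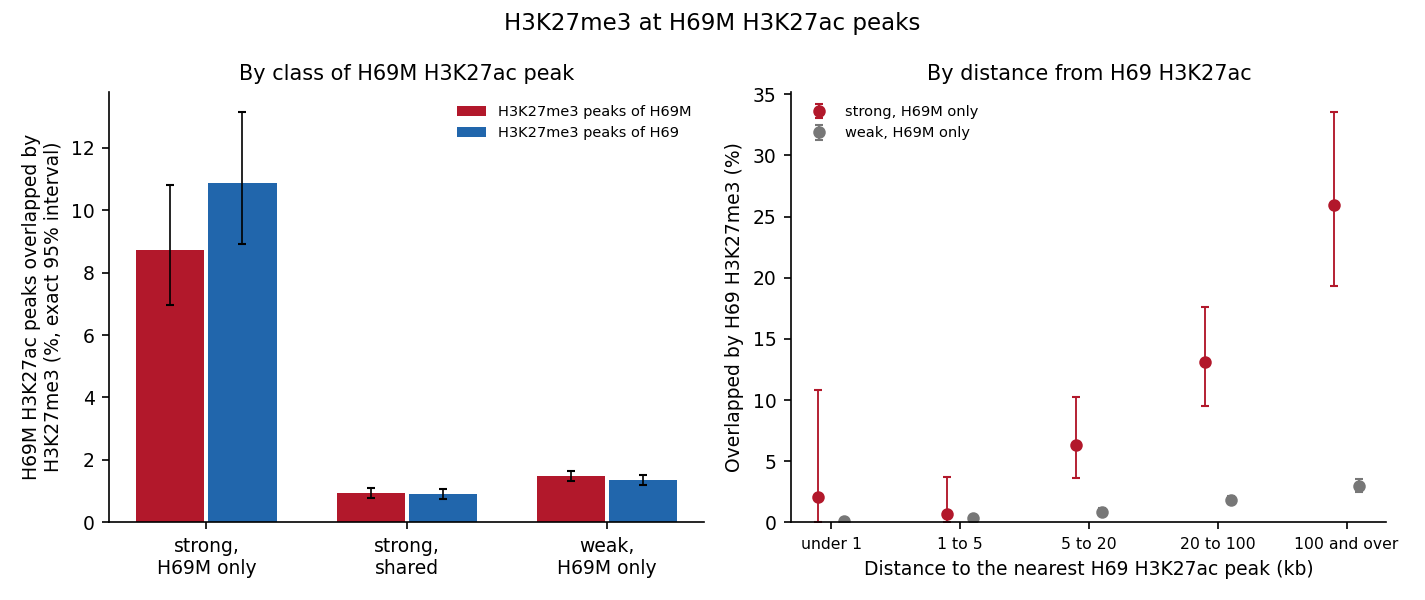
Left, percentage of H69M H3K27ac peaks overlapped by an H3K27me3 peak of H69M (red) or H69 (blue), by class of H3K27ac peak. Right, the percentage overlapped by H69 H3K27me3 against the distance to the nearest H69 H3K27ac peak, for strong (red) and weak (grey) H69M-only peaks. Whiskers are exact 95% intervals, and the strong H69M-only peaks reach 25.9% at 100 kb and over.

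The difference from strong shared peaks was also seen among peaks of like width. Among peaks under 2 kb wide 7.18% of the strong H69M-only ones overlapped H3K27me3 of H69M and 9.74% that of H69, against 0.711 and 0.645% of strong shared peaks. Among the 50 strong H69M-only peaks of 5 kb and over 8 overlapped H3K27me3 of H69M and 7 that of H69, against 1.51 and 1.16% of strong shared peaks. The difference from weak H69M-only peaks was not seen at every width. At 3 to 5 kb 6.02% of strong H69M-only peaks overlapped H3K27me3 of H69M and 8.70% (5.76 to 12.5) that of H69, against 5.88% (2.19 to 12.4) of the 102 weak H69M-only peaks in either line. Overlap with H69 H3K27me3 was more common far from H69 H3K27ac. It was 2.04% for the 49 peaks under 1 kb from an H69 H3K27ac peak, 0.671% for the 149 at 1 to 5 kb, 6.33% at 5 to 20 kb, 13.1% at 20 to 100 kb and 25.9% (19.3 to 33.5) for the 158 at 100 kb or more. Weak H69M-only peaks at 100 kb or more had 3.01%. With H3K27me3 of H69M the share of weak H69M-only peaks also rose, from 0.26% under 1 kb to 4.16% at 100 kb or more. The distance is measured to the H69 H3K27ac peaks that the rule used, so the rise is a description and was not tested. At the score ceiling 20.0% of the 90 strong H69M-only peaks overlapped H3K27me3 of H69 and 18.9% that of H69M. Among the 459 with scores of 1000 to 1500 these shares were 8.71% and 7.41%.

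**Figure D4:**
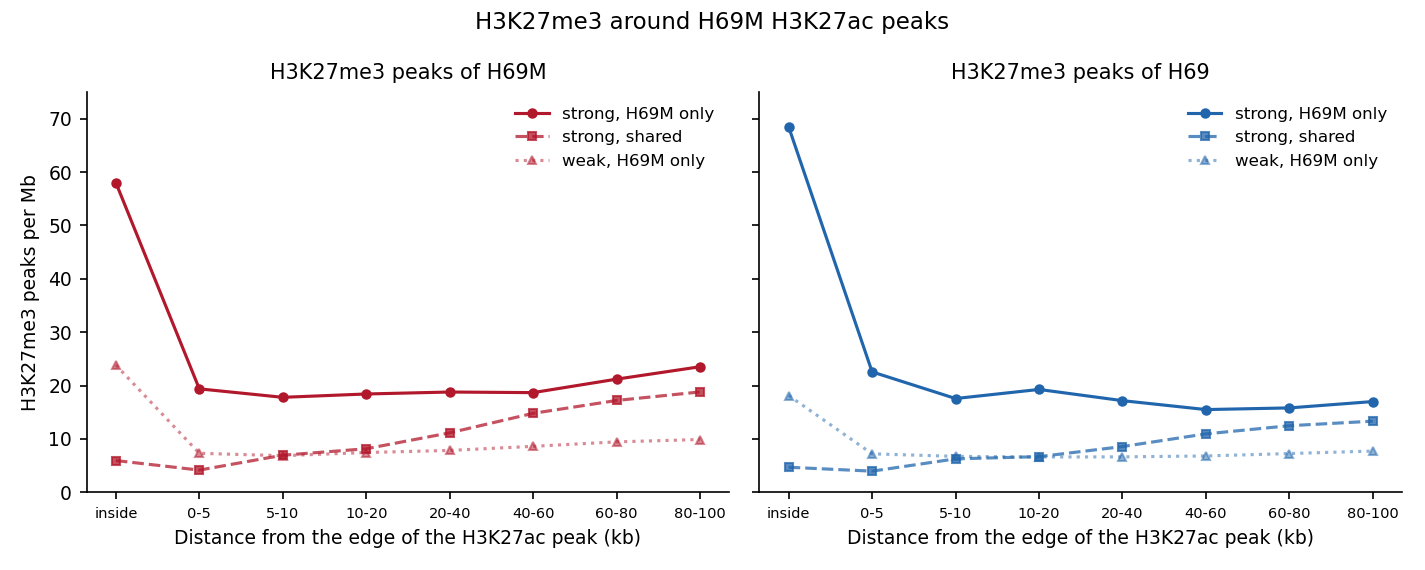
H3K27me3 peaks per Mb inside H69M H3K27ac peaks and in flanks out to 100 kb from their edges, for H69M (left) and H69 (right), with lines for strong H69M-only, strong shared and weak H69M-only peaks. Inside the strong H69M-only peaks the density is 58.0 per Mb in H69M and 68.5 per Mb in H69, falling to 19.4 and 22.6 within 5 kb of the edge.

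H3K27me3 peaks were denser inside the strong H69M-only peaks than in their flanks, as they were for weak H69M-only peaks. The density was 58.01 per Mb in H69M and 68.5 per Mb in H69, against 5.95 and 4.70 per Mb inside strong shared peaks. Within 5 kb of the edge it was 19.4 per Mb in H69M and 22.6 in H69, against 4.17 and 3.97 per Mb around strong shared peaks. From 5 to 10 kb outside the edge it was 17.8 per Mb in H69M and 17.6 in H69, against 6.95 and 6.27 per Mb around strong shared peaks. Strong shared peaks were thus also denser inside than within 5 kb of the edge, but not than from 5 to 10 kb. Weak H69M-only peaks held 23.8 per Mb in H69M and 18.1 in H69 inside, and 7.31 and 7.21 within 5 kb of the edge. Flanks were not cleared of other H3K27ac peaks, and flanks of neighbouring peaks overlap.

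In the gene windows strong H69M-only peaks overlapped H3K27me3 of H69 more often than outside them. The windows were chosen with earlier results of these data known, and the difference was not tested. No share for other H69M peaks in the windows is given, so it cannot be read as particular to strong H69M-only peaks. The windows held 83 different strong H69M-only peaks, and 25 of these (30.1%, 20.5 to 41.2) overlapped H3K27me3 of H69M and 26 (31.3%, 21.6 to 42.4) that of H69. Of the 799 peaks outside the windows 70 overlapped H3K27me3 of H69 (8.76%, 6.89 to 10.9). The YAP1 peak lay over 4 H3K27me3 peaks in H69M, the highest of score 152, and over 1 of score 427 in H69. Both AXL peaks lay over H3K27me3 in both lines, and the AXL window held 17 H3K27me3 peaks in H69M and 25 in H69. All 3 peaks of COL1A1 and both of ITGA5 overlapped H3K27me3 in both lines.

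Other windows differed between the lines in H3K27me3. In the LIF window 3 of the 5 strong H69M-only peaks lay over H3K27me3 of H69 and 0 over that of H69M, with H3K27me3 scores up to 102, and the window held 4 H3K27me3 peaks in H69M and 9 in H69. The VIM peak lay over 6 H3K27me3 peaks of H69M, up to a score of 235, and over 1 of H69 with a score of 55.8. None of the CCL2, PDGFRB, LIFR and SMAD3 peaks lay over H3K27me3 in either line. The SMAD3 window held 0 H3K27me3 peaks in both lines.

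The 5 strong H69M-only peaks with the highest H69 H3K27me3 score under them were taken by rule. The first was chr21:47517045-47519296 in the COL6A2 window, over H3K27me3 scores of 1192 in H69M and 1021 in H69. The next was chr2:38302500-38305119, over scores of 235 in H69M and 484 in H69. In the COL5A1 window chr9:137532582-137536667 lay over 71.9 in H69M and 460 in H69. The YAP1 peak came next, and the last of the 5 was chr18:12307585-12309522 with 168 in H69M and 419 in H69. The COL6A2 peak stood apart in having H3K27me3 above a score of 1000 in both lines.

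The mirror class was small but had more H3K27me3 in the line in which no overlapping H3K27ac peak was called. Of the 58 strong H69-only peaks 19 overlapped H3K27me3 of H69M (32.8%, 21.01 to 46.3) and 3 that of H69 (5.17%, 1.08 to 14.4). These shares count all H3K27me3 peaks of each line, and no count with equal numbers is given for these 58. For the strong H69M-only peaks the shares by the same count were 8.73% in H69M and 10.9% in H69. With equal numbers of H3K27me3 peaks in both lines they were 6.24% in H69M (4.73 to 8.04) and 10.9% in H69 (8.91 to 13.1). Each line has 1 H3K27me3 library and the same H3K27ac peaks are counted in both. The difference between the lines was therefore not tested.

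Strong H69M-only peaks mostly lay several kb or more from the nearest H69 peak, and 20.2% of them lay in groups. At 100 kb or more lay 158 of the 882 (17.9%), and 3993 of the 23857 weak H69M-only peaks. Distance was thus not particular to the strong ones. No share in groups is given for other H69M peaks, so grouping cannot be read as particular to strong H69M-only peaks. The distance to the nearest H69 H3K27ac peak had a median of 20.3 kb, quartiles of 6.03 and 62.9 kb, and a range from 9 bp to 841 kb. Within 50 kb 271 of the 882 (30.7%) had no H69 peak. A strong H69M-only peak had a median of 6 other H69M peaks within 50 kb and of 1.5 H69 peaks, a description only, since the rule excludes H69 peaks and the H69M list is longer. The farthest, chr18:14973955-14976999 at 841 kb and chr18:14970519-14973756 at 838 kb, are neighbours. The others of the 5 farthest lay on chromosomes 17, 6 and 21, at 679, 667 and 618 kb.

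Stitching strong H69M-only peaks within 12.5 kb of each other left 704 single and put 178 (20.2%) in 82 groups, 71 of 2 peaks, 8 of 3 and 3 of 4. The 11 groups of 3 or more held 36 peaks, and none of these stretches held an H69 H3K27ac peak. The 3 groups of 4 peaks were chr21:46718112-46746468, outside every gene window, chr15:67380753-67415124 in the SMAD3 window and chr17:32561561-32583039 in the CCL2 window. They spanned 28.4, 34.4 and 21.5 kb, and the nearest H69 peaks lay 0.446, 1.98 and 156 kb away. Of the groups of 3, 1 lay in the LIF window, 1 lay partly in it, and 1 each lay in the windows of TGFBI, COL1A1, LIFR and CAV1, while chr14:76333514-76352067 and chr3:192596347-192619300 lay outside all windows.

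**Figure D5:**
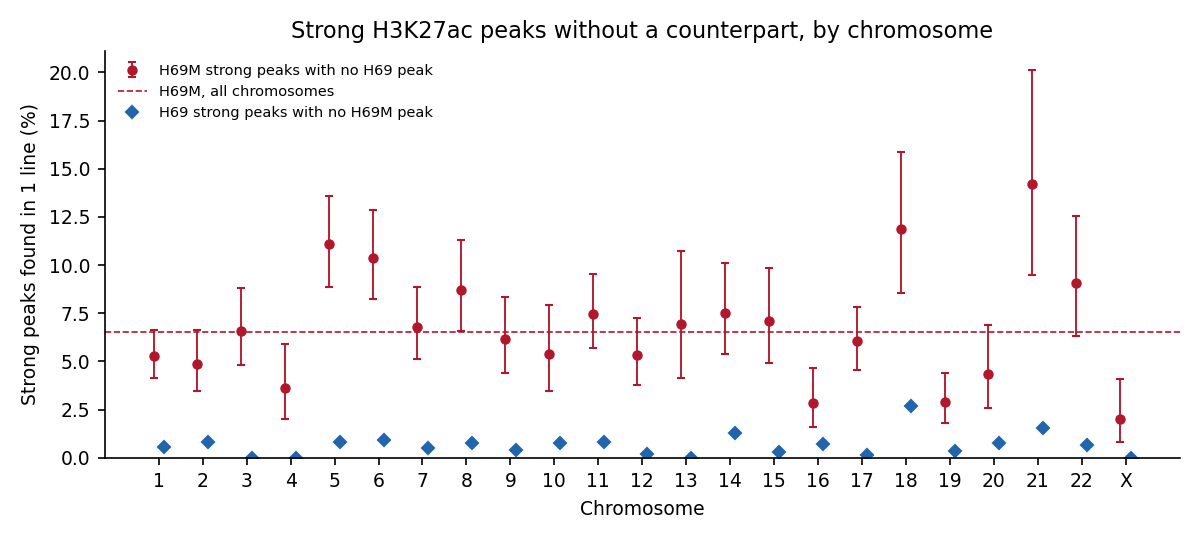
Percentage of strong H3K27ac peaks with no counterpart in the other line, by chromosome, for H69M (red circles, exact 95% intervals) and H69 (blue diamonds). The dashed line is 6.54%, the share over all chromosomes in H69M. Chromosomes 21, 18, 5 and 6 lie highest in H69M and X lowest, and H69 reaches 2.67% at most.

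Chromosomes differed in their share. Among strong H69M peaks those without an H69 counterpart were most frequent on chromosome 21 (26 of 183, 14.2%), followed by 18 (11.9%), 5 (11.1%), 6 (10.4%) and 22 (9.09%). They were least frequent on X (7 of 351, 1.99%), 16 (2.87%) and 19 (2.90%). Over 1 Mb bins 572 held at least 1 strong H69M-only peak, 381 of them exactly 1, and 13 held 5 or more. The highest were chromosome 22 from 30 to 31 Mb with 8 peaks, which includes the LIF window, chromosome 14 from 61 to 62 Mb with 7, and chromosome 22 from 27 to 28 Mb and chromosome 5 from 135 to 136 Mb with 6 each, the last including the TGFBI window.

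Strong H69M-only peaks were somewhat wider than strong shared ones but lower in score. The median width was 2732 bp (quartiles 2090 and 3472) for the strong H69M-only peaks, against 2283 bp for the shared, and they covered 2586 kb in all. The median score was 1467 for the strong H69M-only peaks and 2914 for the shared, and 90 (10.2%) against 5933 (47.1%) stood at 3100 or above, where scores pile up and no longer rank peaks. No H69 counterpart was found for 16.4% of strong H69M peaks scoring 1000 to 1500 and for 1.49% of those at the ceiling. The limit of 1000 thus cut a falling series and not a separate class.

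Among the 90 at the ceiling the listed score only orders the text. The 10 highest ran from 3105 to 3226, lay 3.42 to 441 kb from the nearest H69 peak, and 9 of the 10 had no H3K27me3 under them in either line. The exception, chr6:2970646-2972558, lay over 3 H3K27me3 peaks of H69, up to a score of 126, and 0 of H69M. The 10 widest ran from 7.35 to 12.8 kb. The widest of all, chr20:30421269-30434079, lay 2.96 kb from an H69 peak, and the next, chr2:16116470-16129001, 9 bp from one. The third, chr2:135309849-135321917 with 12.07 kb, lay 140 kb from one. Also among the 10 widest were the AJUBA peak, chr14:23444546-23452643, with 8.10 kb and 1 of the pair at ITGA5.

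The rule's limits fell among close values. The 5 peaks just inside the score limit had scores from 1000.16 to 1001.89, and one of them lies in the LGALS3 window. The 5 unmatched H69M peaks just outside had scores from 998.59 to 999.80. On the side of overlap, the 5 nearest to an H69 peak lay 9, 9, 44, 145 and 156 bp from it. The 5 strong shared peaks with the smallest overlap shared 284, 346, 346, 349 and 355 bp, none of the 12600 under 100 bp and 52 under 500 bp.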

How the data were processed

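Per the labels' protocols, formaldehyde-fixed, sonicated chromatin was precipitated with antibody ab4729 (H3K27ac) or clone C36B1 (H3K27me3) and sequenced from paired ends. Bowtie2, SAMtools 0.1.19 and the build hg19 are named in the submitters' processing notes. The authors deposited 4 peak lists with peak names from MACS and 1 score per peak. The sources used here give neither the definition of this score nor the caller's settings or use of inputs, so the score only ranks or filters peaks. It starts near 50 and piles up at 3100. Depth is unknown: a deeper library gives more and wider peaks, which cannot be told apart from a difference between the lines.

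Overlaps, distances and stitched groups were computed in Python 3.11.15 with pandas 2.3.3 and numpy 2.4.6. Intervals are exact (Clopper-Pearson, scipy 1.17.1), cover counting error only and treat neighbouring peaks as independent. With 1 sample per group no test between lines was made. The overlap code was tested on simulated data. The regions, gene lists and windows were chosen with earlier results of these data known; the TGF-beta and 9p21 lists were added last. The 215 windows were checked against RefSeq (GRCh38.p14), and 215 had the same chromosome and 0 were out of gene order. Regions named by rule were the 10 highest scores, 10 widest, 5 farthest from H69 peaks, 5 groups with most members, 5 with most H69 H3K27me3, and 5 at each limit; genes named in windows, and all other regions, were chosen after their values were seen. Some genes on the lists are counted but not reported here by name. Alternatives covered the score limit, the overlap, the H3K27me3 peaks used and the stitching distance.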

Additional observations from a re-analysis of the deposited data

Results flagged for a closer look

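Outside chromosomes 1 to 22, X and Y, 4 strong H69M H3K27ac peaks had no H69 peak, of 19 strong H69M peaks on such contigs, against 0 of 11 in H69. They drew attention because the comparisons above leave these contigs out. All 4 lie on the contig Un_gl000220, cover 21.2 kb and score from 1147 to 3100, 3 of them at the ceiling.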

How the results depend on the processing

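No paired analysis was possible because each line has 1 library per mark and the labels carry no replicate numbers. The number of strong H69M-only peaks followed the score limit. It was 2380 (12.8% of H69M peaks above the limit, 5444 kb) at a limit of 500, 250 (2.86%, 964 kb) at 2000 and 90 (1.49%, 416 kb) at 3100. With as many strong H69M as H69 peaks, chosen after seeing the data, it was 307 (3.25%, 1137 kb). It stayed within 1.5 times 882 under looser or stricter overlap, where the share was 5.07% with no H69 peak within 5000 bp and 9.03% when only H69 peaks with a score of 100 or more counted.

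The share over H3K27me3 of H69M was 10.96% for peaks with no H69 H3K27ac within 5000 bp, 5.63% at a score limit of 500, 12.8% at 2000, 3.17% with H3K27me3 scores of 100 or more and 6.24% with equal numbers of H3K27me3 peaks. For H69 they were, in the same order, 13.7, 6.60, 14.4, 3.74 and 10.9%. Strong shared peaks gave 0.294% in H69M and 0.238% in H69 with H3K27me3 scores of 100 or more, and 0.659 and 0.897% with equal numbers. Groups held 115 peaks at a stitching distance of 5000 bp and 272 at 50 kb. Gene windows with such a peak numbered 78 at a score limit of 500 and 25 at 2000. The planned counts at promoters and of motifs under the peaks were not run, since they need an hg19 genome and annotation. Read depth, unknown here, limits every count.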

Other observations

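A long noncoding RNA and a tumour suppressor locus share the 9p21 region of chromosome 9. The window of MIR31HG, the host gene of miR-31, held 7 H3K27ac peaks in H69M and 0 in H69. Its strong H69M-only peak, chr9:21558310-21560864, stood at the ceiling of 3100 and lay 223 kb from the nearest H69 peak, over H3K27me3 scores of 184 in H69M and 101 in H69. The CDKN2A window, which holds the genes of the cell cycle inhibitors p16 and p14ARF, had 2 H3K27ac peaks in H69M and 2 in H69 and 0 H3K27me3 peaks in both.

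In the Notch and REST list 1 of 9 windows (11.1%) held a strong H69M-only peak, against 22.3% of all 215 windows. It was that of MAML3, a coactivator of Notch, with a score of 1164 among 62 peaks in H69M and 40 in H69. REST, a repressor of neuronal genes, had 2 peaks in H69M and 1 in H69. NOTCH2, a receptor of that pathway, had 8 peaks in H69M and 2 in H69, and none of the 8 met both limits.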
